A study of Mus musculus with 7 samples.

Results

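The genes described are 46 genes of chromatin regulator complexes, taken from a fixed list and matched by symbol to GENCODE M21 on mm10, out of 21938 protein-coding genes. They comprise 11 polycomb genes, 9 SWI/SNF genes, 4 NuRD genes, 6 deacetylases, 6 histone methyltransferases, 3 histone demethylases, 2 acetyltransferases and 5 genes of DNA methylation. Open chromatin was measured by bulk ATAC-seq, in which the Tn5 transposase inserts adapters into accessible DNA, in 7 libraries of the mouse hematopoietic progenitor line HPC7 (HPC7-1, HPC7-2 and HPC7-4 to HPC7-8). The labels name no condition that differs among the 7 libraries, so no treatment was compared. According to the paper's methods, the line was kept in medium with stem cell factor and bovine calf serum. HPC7 is a single line, and each library came from its own culture batch. Peak names begin with VD in 3 libraries and with EtOH in 4, but the labels attach no treatment to these letters.

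The value used throughout is the intensity of an open chromatin region (OCR), which is the fold enrichment of reads at the OCR's summit over one background value per library. The lists held 84593 to 132852 OCRs, and the background was 4.44 to 20.4 reads, highest in HPC7-1. The median intensity of protein-coding promoters open in all libraries ran from 56.2 in HPC7-6 to 95.0 in HPC7-1, so members were compared within a library. The promoters of 8 of 8 blood progenitor markers held an OCR in all 7 libraries, with mean intensities from 52.2 to 266. Of 8 markers of other cell types, 7 had no promoter OCR in any library and Pax6 had one in 7, at a mean of 114. Median promoter intensity on chromosomes 1, 8 and 17 was 1.28, 1.37 and 1.34 times that of all promoters, and on the other autosomes between 0.854 and 1.04 times. Rnf2 lies on chromosome 1, and Ring1, Arid1b and Uhrf1 lie on chromosome 17. Levels and orders of members are given without division by these chromosome levels, except where stated, and the order within a complex can depend on that choice.

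Chromatin regulators act in multi-subunit machines. Polycomb group proteins keep genes silent through a histone methyltransferase complex built on Ezh1 or Ezh2, Eed and Suz12, and a histone H2A ubiquitin ligase complex built on Ring1 or Rnf2. SWI/SNF complexes use ATP to slide or evict nucleosomes, and NuRD joins an ATP-driven remodeller to histone deacetylases. Writers, erasers and readers of histone and DNA methylation add to these, and many of the genes are mutated in blood cancers. Paralogs, such as Smarca4 and Smarca2, often take the same place in a complex and can replace each other.

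The promoters of these genes were open in HPC7. An OCR overlapped the 1 kb on either side of a start site in all 7 libraries in 45 of 46 members, against 55.9% of protein-coding genes. The exception was Hdac9. The summit itself lay within 1 kb of a start in all 7 libraries in 43 members, against 53.7%, and the other members were Ring1, Arid2 and Hdac9. The median member intensity was 87.3 ± 14.6 (SD, n = 7), and the median percentile among all OCRs of a library was 94.3 ± 0.940. Beside the median promoter open in all libraries, whose percentile was 93.4 ± 1.03, members were close to the middle. Their median rank among these 12272 promoters was 55.5 ± 2.59, on a scale where 50 marks the middle promoter. A mean rank of at least 75 was reached by 14 of 46 members, against 24.7% of the 12272 promoters, and a rank below 25 was found in 9 members, against 24.6%. These shares were read as a description, since the list was not chosen at random.

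The complexes overlapped in level. The median intensity was 111 ± 25.3 for SWI/SNF, 111 ± 21.4 for DNA methylation, 102 ± 18.2 for methyltransferases and 87.5 ± 12.6 for polycomb. It was 73.9 ± 13.6 for deacetylases, 57.6 ± 10.0 for NuRD and 54.4 ± 25.5 for demethylases (SD, n = 7 in each). In HPC7-1 a Kdm6b value of 141, from a wide OCR described below, made Kdm2b the median demethylase, at 107. In the other libraries the median demethylase was Kdm1a, at 36.8 to 64.9. Within each complex, except the pair of acetyltransferases, means spread more than 3-fold between the weakest and the strongest member, so a complex had no single promoter level.

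**Figure D1:**
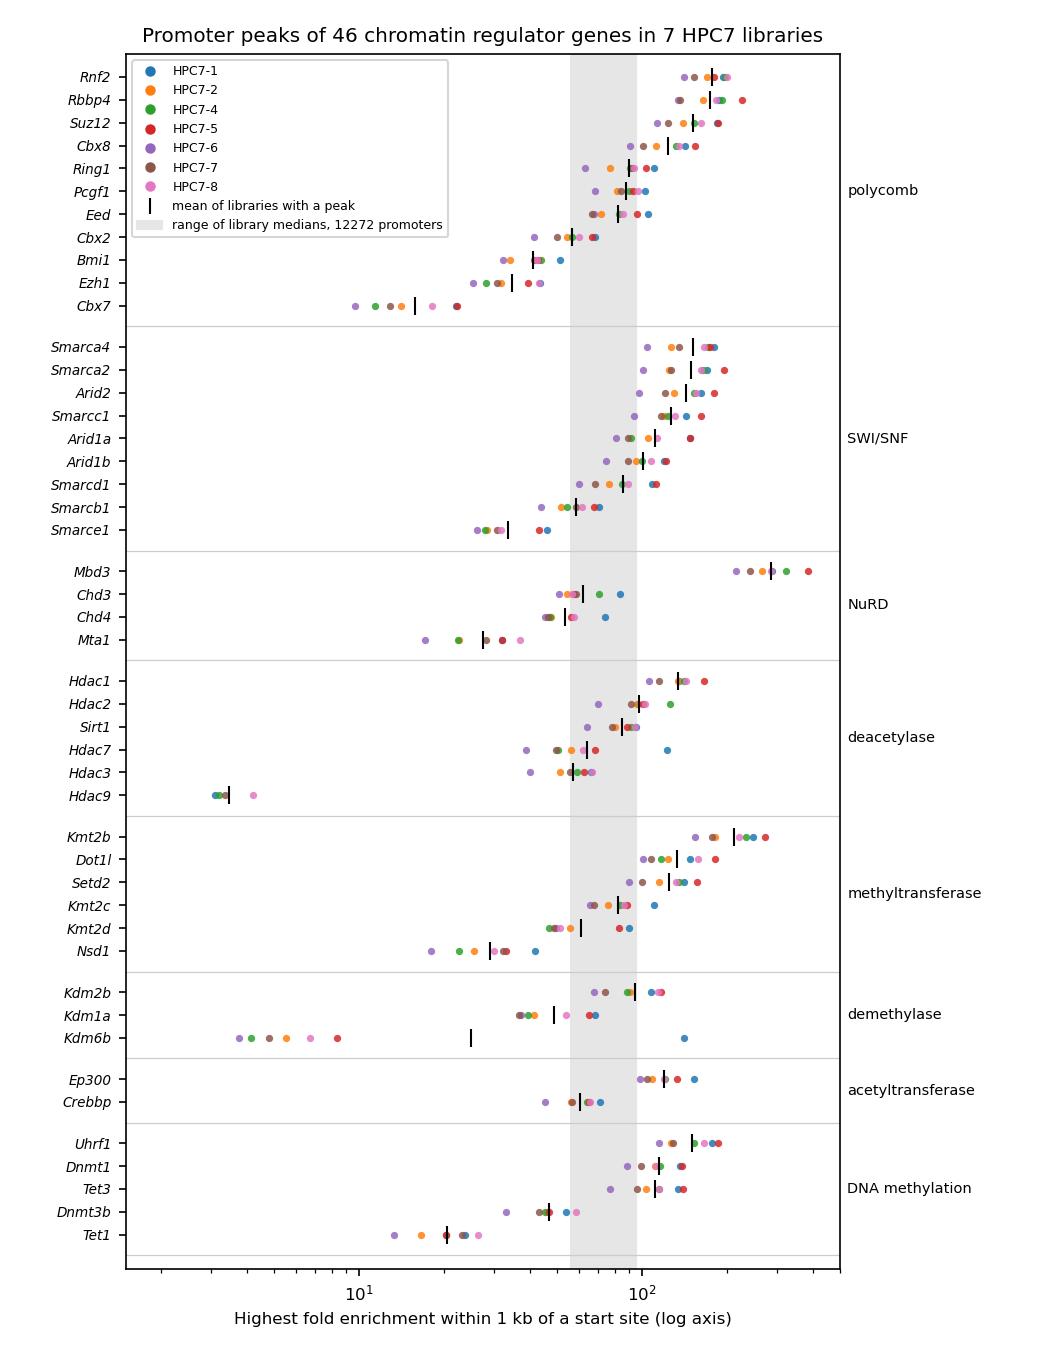
Each point is the highest fold enrichment (log axis) of an OCR within 1 kb of a start site of the gene in 1 library, the bar is the mean over libraries with an OCR, and the grey band is the range of library medians over 12272 promoters. Mbd3 lies furthest right at 214 to 386, Hdac9 has points in 4 libraries between 3.09 and 4.22, and Kdm6b has 1 point at 141 apart from the other 6.

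Among polycomb genes, Rnf2, the ubiquitin ligase subunit also called Ring1b, had the highest mean intensity, 176 ± 22.8, close to the 174 ± 32.5 of Rbbp4. The intensity of Rnf2 was lowest at 141, median 180 and highest 199 over the 7 libraries. Its mean rank was 91.6 ± 3.55, and Rbbp4, a histone-binding subunit that polycomb and NuRD share, was at 91.1 ± 1.69. Rbbp4 had a lowest value of 134, a median of 183 and a highest of 225. The 2 thus overlapped across libraries, and their order by mean is not their order by median. Within libraries, Rnf2 was above Rbbp4 in all but HPC7-5, where it was at 180 against 225. Suz12, the scaffold of the methyltransferase complex, reached 151 ± 27.9, and Eed, its reader of methylated histone H3, reached 82.3 ± 14.7. Ezh1, one of the catalytic subunits, was at 34.6 ± 7.48 and a rank of 19.0. The weakest member was Cbx7, a chromodomain protein that reads methylated histone H3, with a lowest value of 9.70, a median of 14.1 and a highest of 22.1. The libraries of Cbx7 and Rnf2 did not overlap. Here and in the complexes below, the weakest and strongest members were picked by these same values. That they do not overlap is therefore a description only. The remaining polycomb genes lay between Cbx7 and Rnf2, with Cbx8 at 124 ± 22.9, Ring1 at 89.7 ± 15.6, Pcgf1 at 87.8 ± 11.3, Cbx2 at 56.7 ± 9.26 and Bmi1 at 41.2 ± 6.37. The Ring1 OCR had its summit within 1 kb of a start in only 3 libraries, and up to 3339 bp away in the others.

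The stretches of 120 bases just before the RefSeq start (GRCm38.p6) of 6 polycomb genes are shown, since these promoters span most of the range and overlap no annotated exon. They run 5′ to 3′ on the gene's strand, and capitals mark matches to the letters GGGCGGG (SP/KLF) or CCAATC (NFY) on either strand. No member of this set held any of the other letters searched, which are spelled out with the sequence results.
Rnf2, chr1:151500992-151501111, minus strand: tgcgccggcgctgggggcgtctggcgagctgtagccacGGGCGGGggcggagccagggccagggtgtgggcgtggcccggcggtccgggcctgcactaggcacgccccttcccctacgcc
Rbbp4, chr4:129335371-129335490, minus strand: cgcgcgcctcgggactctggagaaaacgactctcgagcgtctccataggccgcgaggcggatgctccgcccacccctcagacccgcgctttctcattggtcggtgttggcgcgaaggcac
Suz12, chr11:79992986-79993105, plus strand: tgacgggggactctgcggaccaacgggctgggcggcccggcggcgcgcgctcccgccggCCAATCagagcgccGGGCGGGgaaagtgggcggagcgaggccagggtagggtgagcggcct
Ring1, chr17:34024681-34024800, minus strand: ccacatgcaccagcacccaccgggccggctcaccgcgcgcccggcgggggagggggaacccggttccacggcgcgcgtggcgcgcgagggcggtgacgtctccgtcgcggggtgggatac
Bmi1, chr2:18676898-18677017, plus strand: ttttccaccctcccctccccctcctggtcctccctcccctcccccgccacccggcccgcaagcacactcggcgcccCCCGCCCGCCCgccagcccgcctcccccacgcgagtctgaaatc
Ezh1, chr11:101226464-101226583, minus strand: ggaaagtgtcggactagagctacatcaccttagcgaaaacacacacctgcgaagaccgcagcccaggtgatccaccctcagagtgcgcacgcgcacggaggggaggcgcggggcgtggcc
The GC share of these stretches was 64.2% in Ezh1, 66.7% in Rbbp4 and between 75.8% and 79.2% in the other 4. Rnf2 and Bmi1 carried GGGCGGG or its complement and Suz12 carried letters of both kinds. Ring1, Rbbp4 and Ezh1, the weakest of the 6 at 34.6, carried none of the letters.

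Among SWI/SNF genes, both ATPases had strong promoters. Smarca4 was lowest at 104, median 166 and highest 180, and Smarca2 had a mean of 149 ± 32.7. Smarcc1, a core scaffold subunit, reached 127 ± 21.7, Arid1a and Arid1b, the alternative DNA-binding subunits of the BAF form, 111 ± 27.2 and 101 ± 16.6, and Smarcd1 85.5 ± 19.4. Smarcb1, the core subunit lost in rhabdoid tumours, was at 58.2 ± 9.17. The weakest member was Smarce1, the HMG-box subunit, at 26.0, 30.7 and 46 (lowest, median and highest), and it did not overlap the libraries of Smarca4. Arid2, a subunit of the PBAF form, had a mean of 142 ± 28.1, but its OCR was the widest of the members at 5119 bp and its summit lay up to 1877 bp from the nearest start, so that no library had a summit within 1 kb.

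Among NuRD genes, Mbd3, a scaffold protein with a methyl-CpG-binding domain, had the most intense promoter of the 46 members. Its values were 214, 286 and 386 (lowest, median and highest), and its mean rank was 99.4 ± 0.129. That range overlapped the 154 to 271 of Kmt2b, the next member by mean, and the highest value of Rbbp4, 225. Within each library, however, Mbd3 was above both of them. Chd4, the remodelling ATPase, had a mean of 53.5 ± 10.1 and a rank of 31.2. Mta1, a scaffold that binds the deacetylases, was the weakest at 17.1, 28.1 and 37.0. Its libraries did not overlap those of Mbd3. Chd3, the alternative ATPase, had a mean of 61.7 ± 11.4 from a broad OCR whose summit was up to 1926 bp from the nearest start, and only 9.52 when the summit had to be within 1 kb.

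Among deacetylases, Hdac1, a catalytic subunit of NuRD and other corepressors, had the strongest promoter at 106, 135 and 165. Hdac2, its close paralog, had a mean of 97.3 ± 16.2, Sirt1, an NAD-dependent deacetylase, 84.6 ± 11.3, Hdac3, the enzyme of the NCoR and SMRT corepressors, 57.2 ± 9.24, and Hdac7, a class IIa enzyme, 63.8 ± 27.1. The Hdac7 mean includes 122 in HPC7-1, from a summit 2352 bp from the nearest start, against 39.0 to 67.9 in the other libraries. Hdac9, also of class IIa, was the one member without a promoter OCR in some libraries. It had none in HPC7-2, HPC7-5 and HPC7-6, and intensities of 3.09 (HPC7-1), 3.19 (HPC7-4), 3.35 (HPC7-7) and 4.22 (HPC7-8), from 22 to 65 reads at the summit. Those 3 libraries had backgrounds of 4.44, 4.75 and 5.39 reads, the lowest of the 7, so depth moved with the missing OCR and its part was not tested.

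Among histone methyltransferases, Kmt2b, one of the MLL family that methylates histone H3 at active promoters, was strongest at 154, 219 and 271 and ranked 96.2 ± 0.894. Dot1l, which methylates H3 within its globular core, reached 133 ± 29.3, and Setd2, which methylates H3 along transcribed genes, 124 ± 23.6. Kmt2c and Kmt2d, the MLL enzymes of enhancers, were at 82.4 ± 15 and 60.6 ± 17.7. Nsd1, a dimethylating enzyme, was the weakest at 18.0, 30 and 41.9, and its libraries did not overlap those of Kmt2b.

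Among demethylases, Kdm2b, which brings a polycomb complex to CpG islands, was strongest at 67.7, 90.2 and 117. Kdm1a, the flavin-dependent demethylase LSD1, had a mean of 48.8 ± 13.3. Kdm6b, which removes the polycomb mark from histone H3, lay between 3.75 and 8.35 in 6 libraries and at 141 in HPC7-1. The OCR of HPC7-1 was 7120 bp wide, with its summit 5310 bp from the start, and the OCR with a summit within 1 kb there was at 7.63. By summits, the mean of Kdm6b over 7 libraries was 5.84, and HPC7-1 was within the range of the other libraries. An upstream element, chr11:69414736-69420970, was listed separately in the other 6 libraries at 91.2 to 165, and in HPC7-1 the summit of the wide OCR was 5 bp from the summit of that element, so the 141 was read there.

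Of the acetyltransferase coactivators, Ep300 had values of 98.1, 119 and 153 and Crebbp of 45.5, 63.8 and 70.7. Their libraries did not overlap. In DNA methylation, Uhrf1, which brings the maintenance enzyme to hemimethylated DNA, was strongest at 115, 152 and 186. Dnmt1, that maintenance enzyme, was at 115 ± 18.1, Tet3, a 5-methylcytosine dioxygenase, at 111 ± 21.5, and Dnmt3b, a de novo methyltransferase, at 46.7 ± 8.09. Tet1, a dioxygenase like Tet3, was the weakest at 13.3, 20.2 and 26.4, and at a mean of 12.5 by summits within 1 kb. Its libraries did not overlap those of Uhrf1.

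Promoter OCRs also differed in width and steadiness. The median member OCR was 2145 bp wide, against 1742 bp for all open promoters. After Arid2, the widest means were 4323 bp in Smarca2, 4193 bp in Chd3, 4129 bp in Arid1b and 4103 bp in Ring1, and the narrowest were 456 bp in Hdac9, 699 bp in Cbx7 and 1050 bp in Ezh1. The Kdm6b OCR, with a mean of 1395 bp, was 334 to 696 bp wide outside HPC7-1. The coefficient of variation over libraries had a median of 18.7% in members and 20.2% in open promoters. Once each library was divided by its own median promoter, the SD of the log2 level was 0.05 in Arid1b and Tet3, with a median of 0.12 in members and 0.13 in open promoters. Start sites of a protein-coding gene on the other strand lay within 1 kb upstream of 4 members of 45, against 18.3% of open promoters. These were Rbbp4 with Zbtb8os at 325 bp, Smarcc1 with Dhx30 at 76 bp, Hdac3 with Rell2 at 63 bp and Sirt1 with Dnajc12 at 739 bp, and an OCR between such starts cannot be given to either gene alone.

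Related genes, some of which take the same place in a complex and some of which, such as Dnmt1 and Dnmt3b, do not, were compared within each library, which cancels the library's background. A two-sided exact sign-flip permutation test over 7 libraries was used, adjusted by Benjamini-Hochberg over 12 pairs, with a smallest possible p of 0.0156. In 10 of 12 pairs one promoter was more intense. The same promoter was higher in 7 of 7 libraries in 9 of the 12 pairs, against 86.6% of all pairs of promoters open in every library, so the count of calls is no result about these pairs, and the size of each difference is described. Hdac7 and Hdac9 were not tested with the 1 kb window, since Hdac9 lacked an OCR in 3 libraries. Tet3 exceeded Tet1 5.46-fold, the largest ratio of the 12, with a mean log2 difference of 2.45 ± 0.27 (SD) and values from 2.05 to 2.78. The Tet1 summit was up to 1155 bp from the nearest start in 6 libraries, its value in HPC7-5 came from an OCR at another start, and with summits within 1 kb the difference was 3.20 ± 0.26. Cbx2 exceeded Cbx7 3.72-fold, with a Cbx7 minus Cbx2 difference of -1.89 ± 0.26, and Dnmt1 exceeded Dnmt3b 2.46-fold. Cbx8 exceeded Cbx2 2.18-fold, Pcgf1 exceeded Bmi1 2.14-fold, Ep300 exceeded Crebbp 1.98-fold and Rnf2 exceeded Ring1 1.97-fold. Hdac1 exceeded Hdac2 and Kmt2c exceeded Kmt2d, each 1.38-fold. The summits of Kmt2c and Kmt2d lay up to 934 and 977 bp from the nearest start, just inside 1 kb. Each of these 9 pairs had the same direction in 7 of 7 libraries (exact permutation adjusted p = 0.0208).

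The ATPases Smarca4 and Smarca2 did not pass the test, with a log2 difference of 0.03 ± 0.09, values between -0.17 and 0.10 and an exact permutation p = 0.469. Arid1a and Arid1b did not pass it either, at 0.12 ± 0.15 and values between -0.13 and 0.31 (exact permutation adjusted p = 0.119). Divided by the median promoter of its chromosome, an alternative chosen after the data were seen, Arid1a was above Arid1b by 0.67 (exact permutation adjusted p = 0.0187). The tenth call, Chd3 over Chd4, was small at -0.21 ± 0.20 and held in 6 of 7 libraries (exact permutation adjusted p = 0.0375). Divided by the chromosome's median promoter it was lost, at -0.08 (exact permutation adjusted p = 0.531). The call was also lost when any library but HPC7-8 was left out, with differences of -0.25 to -0.15 over the omissions. With summits within 1 kb it turned to Chd4 over Chd3 by 2.60. Ring1 could not be compared with Rnf2 by that rule, because the Ring1 OCR had its summit up to 3339 bp away in 4 libraries. Within the 3 VD and the 4 EtOH libraries the mean difference had the same sign in all 12 pairs, and for Tet3 over Tet1 it was 2.55 and 2.37.

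**Figure D2:**
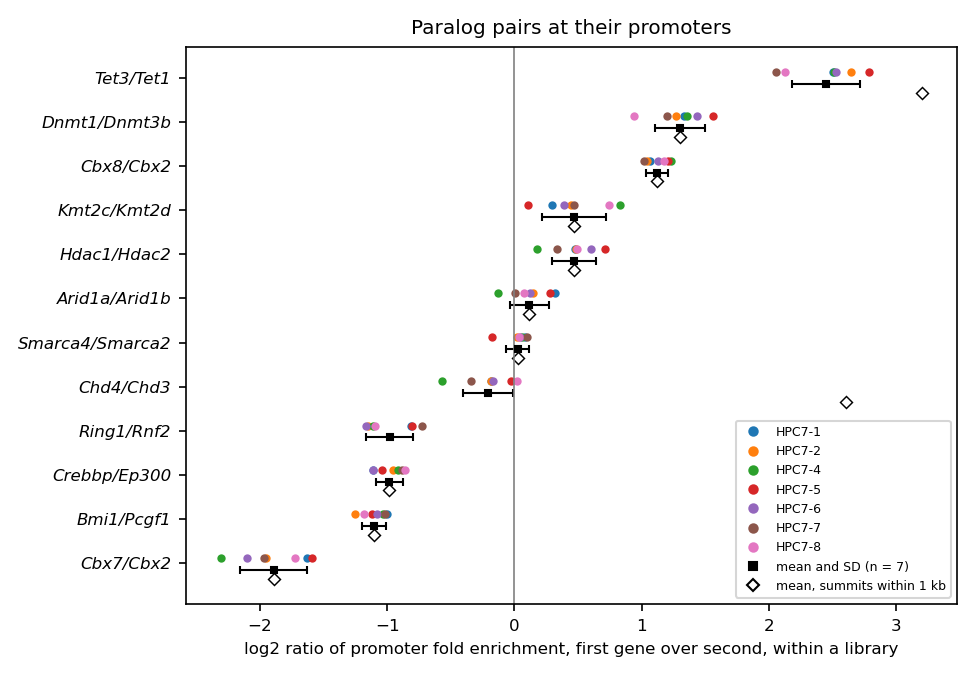
Points are log2 ratios of promoter fold enrichment of the first over the second paralog in each library, squares with bars are the mean and SD (n = 7), and open diamonds are means with summits within 1 kb. Tet3/Tet1 stands furthest right at 2.45, Cbx7/Cbx2 furthest left at -1.89, Smarca4/Smarca2 and Arid1a/Arid1b straddle 0, and the Chd4/Chd3 diamond lies at 2.60 on the other side of 0 from its square.

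The letters around promoter summits were read in windows of 101 bases from GRCm38, in 43 members and 11775 protein-coding promoters with a summit within 1 kb in all libraries. Members had a median GC share of 69.3% against 65.3%, and a median ratio of observed to expected CpG of 0.950 against 0.829. The lowest CpG ratios, picked out after the values were seen, were 0.149 in Kdm6b, 0.299 in Tet1 and 0.315 in Chd3. The OCRs with a summit within 1 kb, where these windows lie, had mean intensities of 5.84, 12.5 and 9.52. The promoter means by overlap, 24.9, 20.5 and 61.7, came in some or all libraries from another OCR, whose letters were not read here. The letters searched, on both strands, were CCGGAAG (ETS), GCATGCGC (NRF1), AAGATGGC (YY1), GGGCGGG (SP/KLF), CCAATC (NFY), TGACGTCA (CRE), TGTGGT (RUNX), the letters AGATAA of GATA factors, and the E-box CAGCTG, none of which contains another. SP/KLF letters were in 23.3% of members and 24.0% of promoters, and NFY letters in 14.0% and 10.4%. NRF1 letters were in 4 members, or 9.30% against 2.27%, and these were Smarca4, Smarcb1, Smarcc1 and Hdac1. E-box letters were in 6.98% of members and 5.47% of promoters. ETS letters were in 1 member, Smarca2, or 2.33% against 8.29%, and RUNX letters in 1, Dnmt1, or 2.33% against 5.03%. YY1, CRE and GATA letters were in 0 members, against 1.68%, 1.10% and 1.77% of promoters. These are descriptions of letters and were not tested.

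Away from start sites, OCRs in the gene body or within 20 kb of a member were merged over libraries into 777 elements, of which 298 (38.4%) were found in all 7 libraries, against 40.1% of 122771 such elements over the genome. Elements within 1 kb of the start of any gene were left out. At least 1 element in all 7 libraries was present in 44 of 45 members with an open promoter, against 90.4% of genes, and the exception was Smarcb1, which had 0 to 5 OCRs per library but none shared by all. The median member had 5 elements, against 3 in open protein-coding genes, and 5.43 per 100 kb against 4.28. Their median mean intensity was 9.54, against 9.26 over the genome, and the strongest reached 206. Of the 298, 180 lay inside a member gene. By complex, the median number per gene was 7 in DNA methylation, 6.5 in deacetylases, 6 in demethylases, 5 in polycomb and SWI/SNF, 4 in NuRD and acetyltransferases and 3.5 in methyltransferases.

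Arid1b stood out by count. It had 66 elements in all 7 libraries in a 393 kb window, or 16.8 per 100 kb, and between 70 and 149 OCRs per library. Hdac9, whose promoter was weakest, had 23 elements in a 910 kb window, or 2.53 per 100 kb, and the strongest of these, chr12:34712864-34715264 inside the gene, was at 36.6 ± 7.64 and between 22.2 and 44.5. Smarca4, Hdac7, Kdm2b and Tet3 had 12 each, at 9.37, 13.1, 7.54 and 8.78 per 100 kb. Per 100 kb, Uhrf1 at 16.6 with 10 elements was next to Arid1b. It too lies on chromosome 17, whose higher promoter level was given above, and whether that level bears on these counts was not tested.

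Of the 6 strongest elements found in all 7 libraries, 3 lay inside Arid1b. The first, at chr17:5189168-5191103 in an intron and 149356 bp into the gene from the nearest start, had intensities of 140 to 257 and a mean of 206 ± 41.9. The second, at chr17:5326865-5328905 and overlapping an exon, had a mean of 183 ± 38.6 and values from 117 to 240. The last of the 3, at chr17:5323416-5325599 in an intron, had 112 ± 41.2 and values from 64.8 to 171. These were 133 to 171 in the libraries with VD names and 64.8 to 100 in those with EtOH names. That split was seen after the fact and was not tested. The lowest of the first was above the highest Arid1b promoter value of 121. Upstream of Nsd1, an intergenic element at chr13:55189245-55191561, -19435 bp from the start, had 180 ± 43.7 with values from 119 to 247, all above the Nsd1 promoter's highest of 41.9. Beyond the end of Smarca4, 79680 bp from its nearest start, an intergenic element at chr9:21714506-21716485 had 112 ± 26.1 with values from 74.0 to 156.

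The bases at the middle summit of these 5 elements are shown with those of the strongest intronic elements of Hdac7 and Cbx7 that were found in all 7 libraries, which had a higher mean than their gene's promoter. Each line has 50 bases on either side of the summit on the plus strand of GRCm38, outside annotated exons, with capitals as above (the letters AGATAA of GATA factors, those of SP/KLF and those of NFY).
Arid1b, first element, chr17:5189884-5189984, plus strand: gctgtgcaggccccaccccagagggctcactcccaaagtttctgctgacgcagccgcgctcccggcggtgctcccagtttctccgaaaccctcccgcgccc
Arid1b, second element, chr17:5327885-5327985, plus strand: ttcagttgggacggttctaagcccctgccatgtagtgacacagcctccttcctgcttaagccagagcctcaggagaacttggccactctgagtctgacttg
Arid1b, last element, chr17:5324558-5324658, plus strand: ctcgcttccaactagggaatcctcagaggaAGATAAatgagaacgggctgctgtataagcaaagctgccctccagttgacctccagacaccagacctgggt
Nsd1, chr13:55190297-55190397, plus strand: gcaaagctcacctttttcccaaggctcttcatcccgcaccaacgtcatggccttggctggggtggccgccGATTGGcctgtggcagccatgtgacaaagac
Smarca4, chr9:21715397-21715497, plus strand: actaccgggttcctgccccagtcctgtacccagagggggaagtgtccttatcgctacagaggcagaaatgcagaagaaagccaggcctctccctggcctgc
Hdac7, chr15:97825182-97825282, plus strand: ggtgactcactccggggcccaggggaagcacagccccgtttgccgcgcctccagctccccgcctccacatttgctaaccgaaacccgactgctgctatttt
Cbx7, chr15:79927804-79927904, plus strand: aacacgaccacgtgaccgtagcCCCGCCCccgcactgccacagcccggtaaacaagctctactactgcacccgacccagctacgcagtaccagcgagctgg
The ratio of observed to expected CpG was 0.961 in the Cbx7 window, 0.736 in Hdac7 and 0.718 in the first Arid1b window, nearer to the promoter median of 0.829 than to the median of elements, whereas it was 0.135 and 0.289 in the other Arid1b windows, 0.453 in Nsd1 and 0.225 in Smarca4. The median was 0.158 over the 298 elements and 0.180 over the 49249 elements found in all libraries over the genome. RUNX letters were in 22.5% of the elements near members and 20.1% over the genome, GATA letters in 6.71% and 10.1%, E-box letters in 7.38% and 8.54%, and SP/KLF letters in 4.03% and 1.85%.

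The sixth element, at 108 ± 19.7 with a lowest value of 72.4, lay in the Hdac3 window within an intron of the neighbouring gene Diaph1, 17990 bp from the nearest Hdac3 start. An element that was joined to a promoter OCR in 1 library is not counted among these, and the Kdm6b element described above, at 118 ± 26.7 (SD, n = 6), was such a case. The strongest element was above the promoter by mean in 9 of 45 members, against 17.1% of open genes. The ratio was 6.19 for Nsd1, 3.77 for Cbx7, 2.06 for Ezh1, 2.04 for Arid1b, 1.89 for Hdac3, 1.69 for Chd4, 1.43 for Hdac7, 1.01 for Mta1 and 1.79 for Kdm6b, where the mean promoter value includes the wide OCR of HPC7-1. With promoter summits within 1 kb, the ratio was 7.65 for Kdm6b and 1.91 for Hdac7, whose promoter mean before also included a wide OCR of HPC7-1. The 1.91 still depends on HPC7-1, where the Hdac7 OCR with a summit within 1 kb was at 10.6, against 39.0 to 67.9 in the other libraries. For Chd3 the ratio by summits was 1.24, from 0.191 before. By that rule the element was above the promoter in 10 of 43 members, against 17.2% of genes. With OCRs overlapping the promoter, it was above in 7 of 7 libraries in Nsd1, Cbx7, Ezh1, Arid1b, Hdac3 and Chd4, in 6 of 7 in Hdac7 and Kdm6b, and in 4 of 7 in Mta1. The Cbx7 element, at chr15:79926729-79929105 in an intron, had 59.3 ± 12.3 with values from 41.1 to 77.9, all above the Cbx7 promoter. The Hdac7 element, at chr15:97824742-97826633 in an intron, had 91.5 ± 17.9. A second Hdac7 element, at chr15:97828216-97830189, had 95.5 ± 17.9 over 6 libraries and was joined to the promoter OCR in HPC7-1. The Ezh1 element, over an exon of the neighbour Cntnap1, had 71.1 ± 15.8. An element in a member's window may belong to another gene, which peak lists cannot tell.

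**Figure D3:**
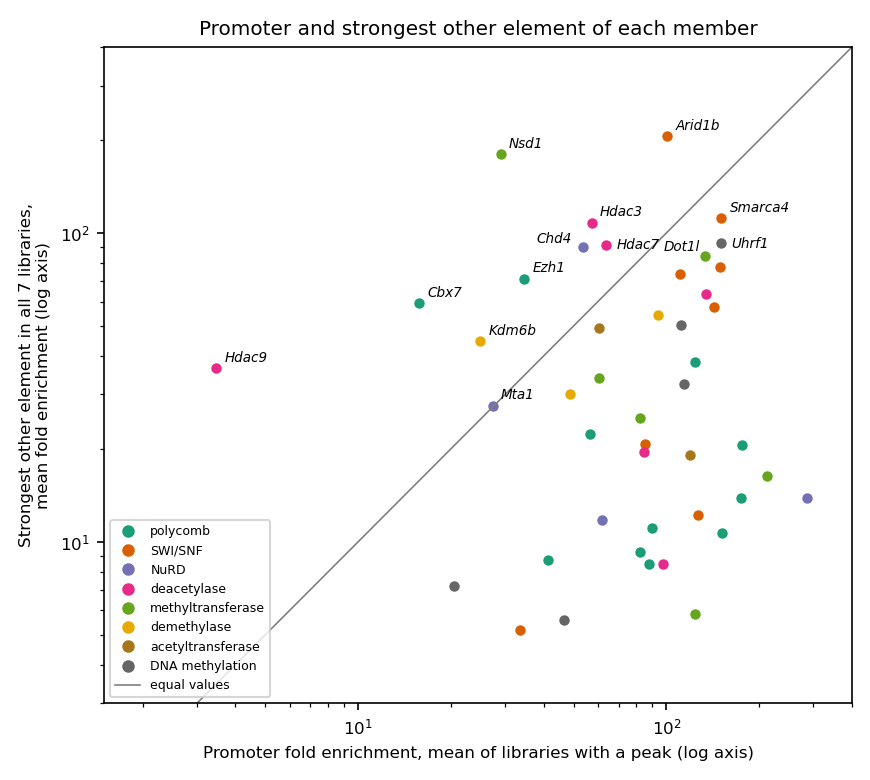
Each point is a member, with its mean promoter fold enrichment over libraries with an OCR on the x axis and the mean of its strongest other element found in all 7 libraries on the y axis (both log axes), coloured by complex. Points above the line, such as Nsd1 at 180 over 29.0 and Cbx7 at 59.3 over 15.7, have an element stronger than their promoter. Smarcb1 has no such element and is not drawn.

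**Figure D4:**
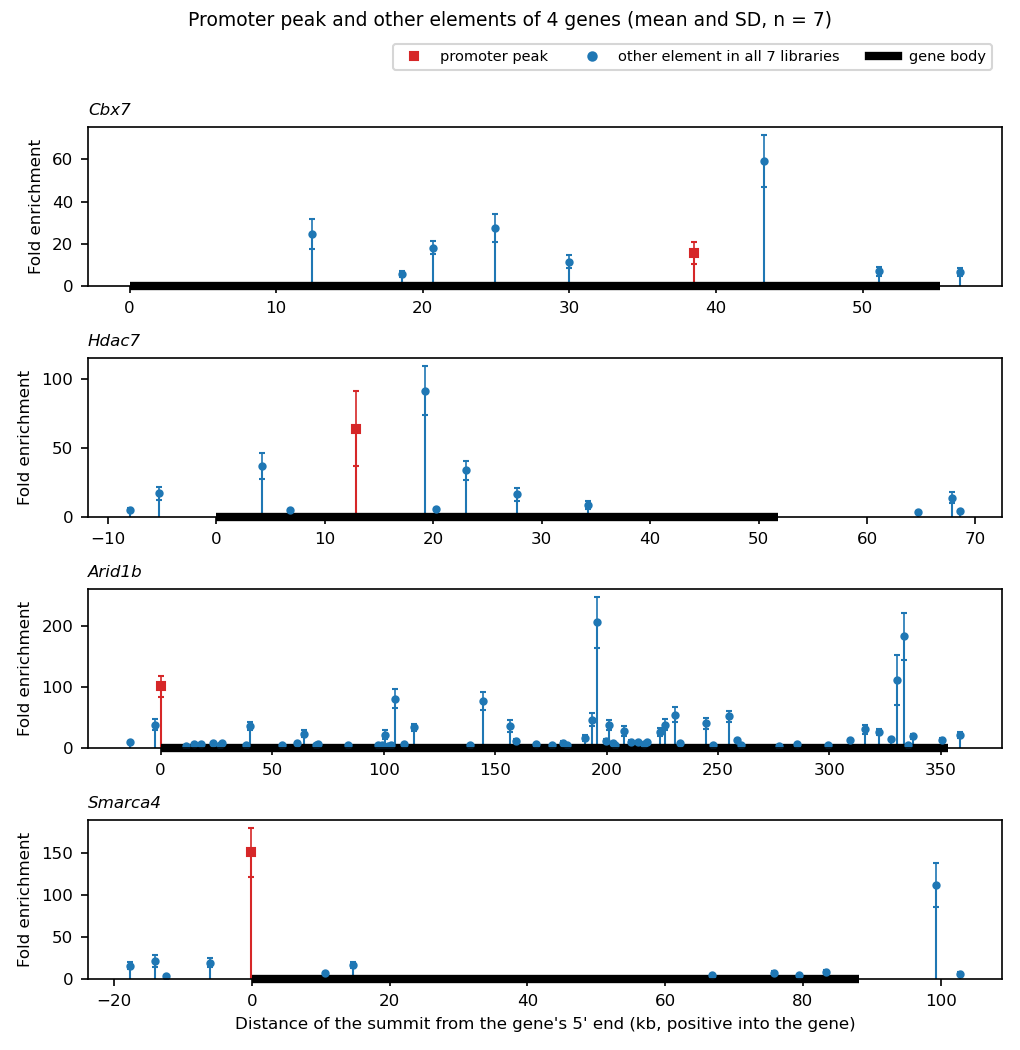
Mean fold enrichment and SD over 7 libraries of the promoter OCR (squares) and of the elements found in all libraries (circles), by distance of the summit from the annotated 5′ end of the gene, with the gene body as a black bar. In Cbx7, Hdac7 and Arid1b an element exceeds the promoter, at 59.3, 91.5 and 206, and in Smarca4 the promoter at 151 exceeds the downstream element at 112. The Hdac7 promoter mean includes 122 in HPC7-1, from a summit 6 bp from that of another element inside the gene.

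The same counts were taken in other genes of these pathways. Of 93 listed subunits and enzymes that are not members, an OCR was present at the promoter in every library for 90, and their median mean intensity was 87.8. The share was 18 of 18 in polycomb, 17 of 18 in SWI/SNF, 6 of 7 in NuRD, 12 of 12 deacetylases, 13 of 13 methyltransferases, 13 of 13 demethylases, 7 of 7 acetyltransferases and 4 of 5 in DNA methylation. Chd5, the NuRD ATPase of neurons, had no promoter OCR in any library. Actl6b, the neuronal actin-like subunit of SWI/SNF, had one in 2 libraries and Dnmt3l, the germ cell cofactor of de novo methylation, in 1, both named after their values were seen. Other subunits and enzymes known from neurons or the germ line, also picked out later, had an OCR in all 7 libraries, with means of 72.7 ± 20.9 in Dpf1, 102 ± 23.4 in Dpf3, 105 ± 16 in Ss18l1, 87.3 ± 12.6 in Kdm4d and 155 ± 25.3 in Prdm9.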

How the data were processed

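According to the paper's methods, Cutadapt was used for trimming, BWA-mem for alignment (mm10) and MACS2 for peaks, 1 list per library. Versions and options are not given in the sources used here. Each row of the deposited lists gives a fold enrichment (a ratio), a −log10 p-value and a −log10 q-value, a score and the summit offset. No values were scaled between libraries. Because 100% of fold enrichments were whole multiples of 1 step per library (within 0.05 steps), reads at the summit and the background were recovered. MACS2 here used 1 background per library, so no local background entered the values.

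From these lists, the highest fold enrichment of a peak overlapping 1 kb on either side of any GENCODE M21 start was taken per gene and library. Other peaks in the gene body plus 20 kb were merged where they overlapped by 1 bp. Ranks were over 12272 protein-coding promoters open in all 7 libraries. Paralogs were compared by an exact sign-flip permutation test with Benjamini-Hochberg adjustment. Libraries were grouped by their labels into 1 group.

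RefSeq's promoter table (GRCm38.p6) matched 36 of 46 members (78.3%), too few for a check over the list, which was void, so windows of 50 bases on either side of summits were used. Chd3, Hdac1, Kdm6b, Cbx2, Hdac3, Nsd1, Smarce1, Kmt2b, Arid2 and Pcgf1 had no entry.

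Members, lists and pairs were chosen with earlier results of these data known. Values per library are given for the strongest and weakest member of each complex, members lacking an OCR in a library, the most different pairs, the 6 strongest shared elements and the 3 genes with the most elements. Other members are summarised by their means, and a gene named outside this rule was chosen after its values were seen. Alternatives were other windows (500 bp and 3 kb, and 5 kb and 50 kb around genes), summits, protein-coding transcripts, a −log10 q of at least 5, equal list lengths, −log10 p or percentile as level, 50% reciprocal overlap, each library left out and, added later, division by the chromosome's median promoter. Scripts ran in Python 3.11.15 with pandas 2.3.3 and scipy 1.17.1, on numpy 2.4.6, and figures were drawn with matplotlib 3.10.9. On simulated data, promoter overlaps were checked against bedtools.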

Additional observations from a re-analysis of the deposited data

Results flagged for a closer look

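Of 45 members tested for a library apart from the other 6 by Dixon's criterion on levels divided by the library's median promoter, 3 were (6.67%), against 5.50% of the 12272 open promoters and about 1 in 20 by chance, so the count is no result about the members. Ring1 had an intensity of 91.7 in HPC7-7, which was within the 63.0 to 110 of the other libraries but at 0.38 on the log2 scale relative to its library, against 0.10 to 0.21. Its OCR there had a summit beyond 1 kb from the start, as in HPC7-1, HPC7-4 and HPC7-6. Hdac7 had 122 in HPC7-1, against 39.0 to 67.9 elsewhere, and its OCR there was 4425 bp wide with the summit 2352 bp from the start, against 103 to 110 bp in the other libraries. That summit was 6 bp from the summit of an element inside the gene, which the other 6 libraries list apart from the promoter at 67.7 to 118. Kdm6b had 141 in HPC7-1, against 3.75 to 8.35 elsewhere, with its summit 5 bp from that of an upstream element, which the other 6 libraries list separately at 91.2 to 165. In both genes the high value of HPC7-1 is thus within or close to the range of an element that the other libraries list on its own. HPC7-1 had the highest background reads, 20.4, and the most OCRs, 132852, and the part of depth in the wider OCRs was not tested.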

How the results depend on the processing

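The number of members with a promoter OCR in all libraries was 43 to 46 under 13 alternatives, and the median percentile 93.8 to 94.6. The number of called pairs was 9 to 11 under 14. Each was close to the values reported, but the number of pairs tested also changed. With 3 kb windows 11 of 13 pairs were called, and with summits within 1 kb 9 of 11. The median GC share was 68.0% in the 36 promoters of the RefSeq table, where the check was void because too few members matched, so it says nothing about stability. Shared elements near members fell from 298 to 180 with the gene body alone and to 198 with 50% reciprocal overlap, fewer regions or stricter matching by construction, and were 298 to 338 with a library left out. They were 211 with 5 kb and 429 with 50 kb around genes, 380 with OCRs at the starts of other genes kept and 260 with a −log10 q of at least 5. The 9 pairs other than Chd4/Chd3, Arid1a/Arid1b and Smarca4/Smarca2 kept their direction and call in the 13 or 14 alternatives run for each, which did not include the −log10 q minimum or equal list lengths, and Ring1/Rnf2 could not be fitted with summits within 1 kb. Chd4/Chd3 reversed to 2.60 with summits within 1 kb, was -0.08 after division by the chromosome's median (exact permutation adjusted p = 0.531), and lost its call without HPC7-1, HPC7-2, HPC7-4, HPC7-5, HPC7-6 or HPC7-7, at -0.25 to -0.15 over the 7 omissions. With 6 libraries the test allows no exact permutation p below 0.0312. Arid1a/Arid1b passed without HPC7-4, at 0.16, and Smarca4/Smarca2 passed without HPC7-5, at 0.06 (exact permutation adjusted p = 0.0375 in each), but Smarca4/Smarca2 turned to -0.043 after division by the chromosome's median. The causes were not tested. No paired analysis was possible because the libraries form 1 group, so no groups share replicate numbers, and only the gene pairs were compared within libraries. What depth limits, for weak OCRs such as those of Hdac9 or for the wide OCRs of HPC7-1, was not tested.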
